A study of Mus musculus with 23 samples.

Results

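The Eps8 family holds 4 genes in the mouse, Eps8, Eps8l1, Eps8l2 and Eps8l3, which code for regulators of the actin cytoskeleton. Members were all probes that carry these gene names in the array files, which gave 5 probes for 4 genes among 39429 probes. Eps8 had 2 probes and each other gene had 1. The family was chosen by the intensity of Eps8l1, which in PR and in FA exceeded that of CD, so the values of Eps8l1 in those comparisons are a description without a test. The other members, and the comparison of FA with PR for all 5 probes, were tested.

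EPS8 caps the fast-growing ends of actin filaments and also bundles filaments. Together with ABI1 and SOS1 it forms a complex that activates the small GTPase RAC, downstream of growth factor receptors such as EGFR. The protein is known from the tips of stereocilia in the inner ear, from intestinal microvilli and, in the brain, from neuronal growth cones and synapses. EPS8L1 and EPS8L2 are paralogues that can also act with SOS1, and EPS8L3 is a further paralogue.

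Whole brains, cerebrum and cerebellum included, were taken from 12 male progenies at 19 weeks of age, 4 per diet of the recipient mother, after behavioral tests. Embryos of the C57BL/6J strain were made by in vitro fertilization and transferred to ICR recipients that had eaten the CD (control diet, 20% casein and 0.02% folic acid), the PR diet (protein-restricted, 5% casein and 0.02% folic acid) or the FA diet (PR with folic acid added, 5% casein and 0.1% folic acid). All progenies were fostered by ICR mothers and ate the CD after weaning. RNA of each brain was hybridized to 1 single-colour Agilent array with 43020 spots that were not controls. Between 27068 and 28458 spots were well above the local background on the CD arrays, 31266 to 33478 on the PR arrays, and 30408 to 31672 on the FA arrays. The net signal of negative control probes was also lowest on the CD arrays, at 28.1 to 34.8 intensity units, against 42.7 to 51.2 on the PR arrays and 39.3 to 47.6 on the FA arrays. The replicate number was the position on the slide for all 12 arrays, and this control signal was higher at each higher position on all 3 slides. The 4 arrays of a diet shared a slide, so that diet and slide cannot be told apart in any comparison. The sources used here do not say whether mice of a diet were littermates, and p-values measure the spread between these arrays. In whole tissue, fewer cells of a type and less RNA per cell cannot be told apart. Levels are log2 normalized intensities, and differences are read within a probe. Only for marker lists are the brightest gene and sums or means over probes given.

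Eps8l1, on whose values the family was chosen, was above background in PR and FA and not in CD. Its probe lies at chr7:4430514-4430573 of the mm9 build. On the CD arrays its log2 intensity was 4.68, 4.54, 4.75 and 3.99, with 0 of 4 arrays well above background. The PR arrays gave 7.57, 7.03, 7.72 and 7.21, and the FA arrays gave 7.50, 7.24, 6.94 and 6.05, all of them well above background. Every PR and FA array was thus above every CD array, and FA replicate 4 was the lowest of the 8. Means were 4.49 ± 0.34 in CD, 7.38 ± 0.32 in PR and 6.93 ± 0.63 in FA (SD, n = 4). Because no CD array measured the probe above background, only a bound can be given, taken against the higher of the CD value and the lowest signal well above background on each CD array. By this bound Eps8l1 was at least 5.14-fold higher in PR and at least 3.77-fold higher in FA than in CD. The fitted differences of 2.89 and 2.44 on the log2 scale were 1.12 and 0.94 with normexp background correction, an offset of 50 and quantile normalization together, which is called normexp below. They were 2.80 and 2.36 with quantile normalization alone. All of these take CD values that were not measured above background, and those with normexp were smaller than the bounds, so the bounds hold for the deposited values only. Between FA and PR the values overlapped, with a difference of -0.45 ± 0.30 (SE) and an adjusted p of 0.56 in the limma fit (95% interval -1.11 to 0.22). This difference was -0.153 without FA replicate 4 and -0.18 with normexp.

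**Figure D1:**
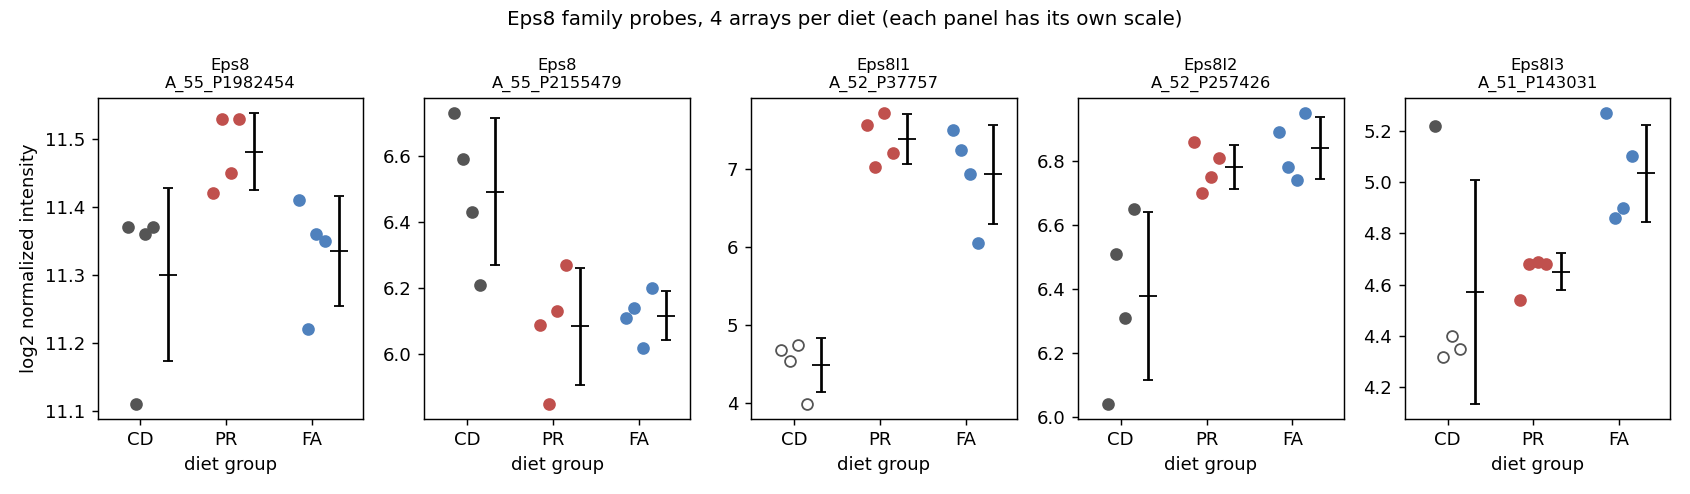
Log2 normalized intensity of the 5 Eps8 family probes on each array, by diet group. Points are single arrays, open where the probe was not well above background, and bars are mean ± SD over 4 arrays. Eps8l1 ran from 3.99 to 4.75 in CD and from 6.05 to 7.72 in PR and FA.

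Eps8l2, whose product is also found in stereocilia, was higher in both diet groups than in CD. Its probe lies at chr7:148547806-148547865 of mm9. The CD arrays gave 6.04, 6.51, 6.31 and 6.65, the PR arrays 6.86, 6.70, 6.75 and 6.81, and the FA arrays 6.89, 6.78, 6.74 and 6.95. All 8 PR and FA arrays lay above all 4 CD arrays, and the probe was well above background on all 12 arrays. Relative to CD, Eps8l2 rose by 0.40 ± 0.11 (log2, SE) in PR, which is 1.32-fold, with an adjusted p of 0.022. In FA it rose by 0.46 ± 0.11, or 1.38-fold, with an adjusted p of 0.0098. With normexp the differences were 0.177 and 0.236, both called. The PR call was lost without CD replicate 3 (adjusted p = 0.0545), PR replicate 1 (0.0552) or PR replicate 4 (0.0534), in a fit of the CD and PR groups alone (0.0531) and in the Tukey test of the methods (0.076), while the FA call was kept in all 21 alternatives. The FA and PR groups differed by 0.06 ± 0.11 with an adjusted p of 0.87.

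Eps8, the founding member and actin-capping protein, gave different results with its 2 probes, both on the minus strand of chromosome 6. The brighter probe, at chr6:137426698-137426757, had 11.37, 11.11, 11.36 and 11.37 in CD, 11.42, 11.53, 11.45 and 11.53 in PR, and 11.41, 11.22, 11.36 and 11.35 in FA. The PR arrays were all above the CD arrays, while FA and CD overlapped. Its difference was 0.18 ± 0.07 between PR and CD (adjusted p = 0.068) and 0.04 ± 0.07 between FA and CD (adjusted p = 0.73), so it did not pass in either.

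The dimmer Eps8 probe, at chr6:137425790-137425849, gave 6.73, 6.59, 6.43 and 6.21 in CD, 6.09, 5.85, 6.13 and 6.27 in PR, and 6.11, 6.14, 6.02 and 6.20 in FA. It was well above background on all 12 arrays. This probe fell by 0.41 ± 0.12 in PR (adjusted p = 0.023), although 1 PR array lay above the lowest CD array, and fell by 0.37 ± 0.12 in FA (adjusted p = 0.029), where the groups did not overlap. The fitted differences of the Eps8 probes had opposite signs in PR, but only that of the dimmer probe passed. Under normexp the dimmer probe was lower by 0.21 in PR and 0.20 in FA, and still called. Each call of the dimmer probe was lost in 7 of 21 alternatives: in both comparisons with the replicate number as a block (adjusted p = 0.0535 in PR and 0.0631 in FA), in the Tukey test (0.0786 and 0.0949), without CD replicate 1 (0.0576 and 0.0734) and without CD replicate 2 (0.0585 and 0.0717). The PR call was also lost without PR replicate 2 (0.0549), in the fit of CD and PR alone (0.0586) and with scaling to the 75th percentile (0.0787), and the FA call without FA replicate 1 (0.0596), 2 (0.0511) or 3 (0.0735).

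Eps8l3 was near the limit of measurement. Its probe, at chr3:107695731-107695790, stood well above background on only 1 of the 4 CD arrays, and on all 8 others. CD values were 5.22, 4.32, 4.40 and 4.35, PR values 4.54, 4.68, 4.69 and 4.68, and FA values 5.27, 4.86, 4.90 and 5.10. CD replicate 1 was the array above background, and it was higher than every PR array. The difference from CD was 0.08 ± 0.18 in PR (adjusted p = 0.77) and 0.46 ± 0.18 in FA (adjusted p = 0.076). Without CD replicate 1 both passed, at 0.30 (adjusted p = 0.0448) and 0.68 (adjusted p = 0.0008), and FA also passed at 0.63 with scaling to the 75th percentile (adjusted p = 0.0296). No rise is read from these passes, because the other 3 CD arrays did not measure the probe. Their lowest signals well above background were 5.02, 5.28 and 5.03, while the Eps8l3 means were 4.65 in PR and 5.03 in FA. With scaling to the 75th percentile the PR difference was 0.424 and was not called. With normexp the differences from CD were 0.0465 in PR and 0.141 in FA, neither of them called. FA and PR did not overlap but differed by 0.38 ± 0.18 with an adjusted p of 0.39, or by 0.204 with the 75th percentile and 0.094 with normexp.

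Of the 4 tested probes, 2 were called between PR and CD, 1 higher and 1 lower. Over all probes, 30% were called in that comparison, 13.4% higher and 16.6% lower, and nothing particular to the family is read from 2 of 4. Between FA and CD 2 of 4 were called, 1 higher and 1 lower, against 34.4% of all probes, 16.4% higher and 18% lower. Groups did not overlap for 2 of the 4 tested probes in each of these comparisons, and for 33.2% (PR) and 36.9% (FA) of all probes. At an unadjusted p under 0.05 were 3 of 4 in PR and 3 of 4 in FA, beside 41.1% and 44.4% of all probes. Both comparisons share the 4 CD arrays. Between FA and PR limma called 0 of 5 family probes, with 0 at an unadjusted p under 0.05 (14.1% of all probes) and 0 in the Tukey test, and 0.614% of all probes, 0.228% higher and 0.386% lower. For 2 of the 5 probes the FA and PR arrays did not overlap, as for 11.1% of all probes.

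Genes that act with EPS8 were read from 7 lists with 72 genes, of which 71 were on the array, each by its brightest probe. Between PR and CD 8 were called higher and 10 lower, 25.4% of 71. Between FA and CD 11 were called higher and 12 lower, 32.4%, so that both shares were below or near those of all probes. By list the share called ran from 12.5% to 40% in PR, beside 30% of all probes. In FA it ran from 22.2% to 44.4%, beside 34.4%. The lists are small, and nothing particular to a list is read from the counts given below. The median difference of the listed genes was 0.01 in PR and -0.04 in FA, beside -0.02 and -0.01 over all probes. Between FA and PR limma called 0 of 71, with 10 (14.1%) at an unadjusted p under 0.05, as for 14.1% of all probes, and 0 in the Tukey test.

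The RAC-activating complex (ABI, SOS and RAC proteins, GRB2 and PI3-kinase subunit) had 9 measured genes, of which 1 rose and 1 fell in PR and 2 rose and 2 fell in FA. Rac1, the GTPase itself, rose by 0.21 ± 0.04 in PR (adjusted p = 0.0055), but its other probe was called in the opposite direction. The rise was not called with scaling to the 75th percentile (adjusted p = 0.21), and ran from 0.0701 to 0.234 over the 21 alternatives. Abi1, the adaptor that links EPS8 to SOS1, rose by 0.27 ± 0.07 in FA (adjusted p = 0.013). Sos2, an exchange factor, fell by 0.18 ± 0.05 in both PR and FA (adjusted p = 0.015 and 0.012).

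Among 6 genes of receptor signalling and trafficking, 0 rose, 1 fell in PR and 2 fell in FA. Egfr, the receptor whose kinase phosphorylates EPS8, fell by 0.52 ± 0.07 in PR (adjusted p = 0.00044) and by 0.62 ± 0.07 in FA (adjusted p = 0.00015), by the brightest of its 3 probes, the others not being called.

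Filopodia genes numbered 10, with 2 higher and 2 lower in each diet. Baiap2l1, a membrane-bending partner of EPS8, rose by 0.45 ± 0.08 in PR (adjusted p = 0.0018) and 0.40 ± 0.08 in FA (adjusted p = 0.0031), or 0.245 and 0.214 with normexp. Diaph3, a formin that elongates filaments, fell by 0.35 ± 0.06 in PR (adjusted p = 0.0014) and by 0.48 ± 0.06 in FA (adjusted p = 0.00019), or by 0.175 and 0.219 with normexp.

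Of 8 measured genes of the WAVE complex, which turns RAC activity into branched actin, 1 rose and 1 fell in PR, and 1 rose and 2 fell in FA. Nckap1, a core subunit, rose from 12.95 in CD to 13.73 in PR and 13.63 in FA. Its differences were 0.77 ± 0.09 (adjusted p = 0.00015) and 0.67 ± 0.09 (adjusted p = 0.00026). Nckap1l, the form of blood cells, fell by 0.22 ± 0.06 in PR (adjusted p = 0.014), and Wasf2 fell by 0.24 ± 0.06 in FA (adjusted p = 0.0088), with 2 of its 3 probes called lower.

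**Figure D2:**
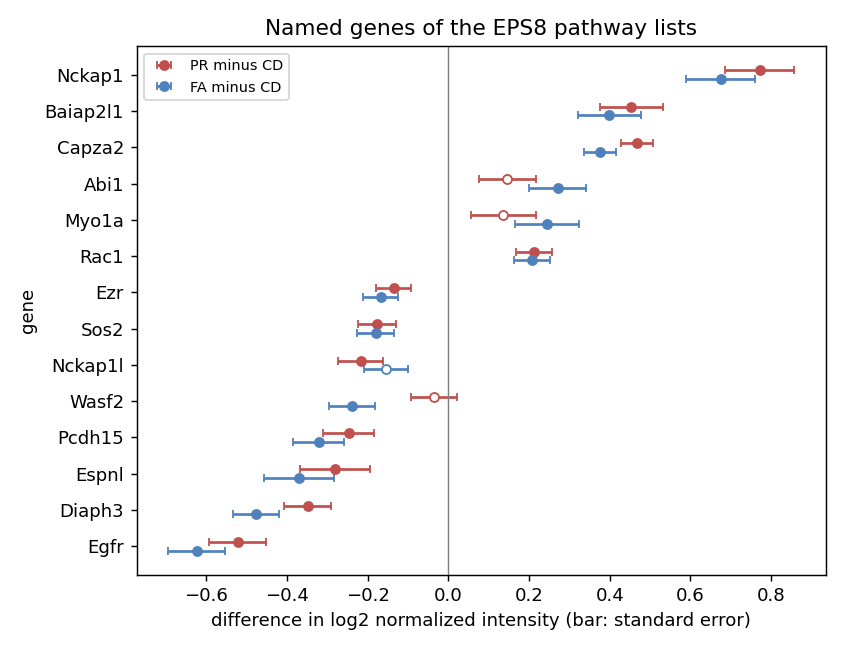
Difference in log2 normalized intensity from CD, with its standard error, for the named genes of the pathway lists except Myo3a, in PR and FA. Open points were not called. Nckap1 was highest at 0.77 in PR and Egfr lowest at -0.62 in FA.

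Capping and bundling genes, which share the actin roles of EPS8, numbered 18, with 3 higher and 1 lower in each diet. Capza2, a subunit of capping protein, rose by 0.47 ± 0.04 in PR (adjusted p = 7.8e-05) and by 0.38 ± 0.04 in FA (adjusted p = 0.00011). Espnl, a bundling protein of the espin family, fell by 0.28 ± 0.09 in PR (adjusted p = 0.033, lost in 6 of 21 alternatives) and by 0.37 ± 0.09 in FA (adjusted p = 0.0078). Its PR difference ran from -0.32 to -0.184 over the alternatives.

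Stereocilium tip genes numbered 12, with 1 higher and 3 lower in PR and 1 higher and 2 lower in FA. Pcdh15, the tip link cadherin, fell by 0.25 ± 0.06 in PR (adjusted p = 0.014) and by 0.32 ± 0.06 in FA (adjusted p = 0.0031), by the brightest of its 7 probes, of which 2 were called lower. The gene called higher was Myo3a, named after its values were seen, with 3 of 4 PR arrays, 1 of 4 FA arrays and 0 of 4 CD arrays well above background. Its means of 3.96 in PR and 3.57 in FA were under the lowest signals well above background of the CD arrays, 4.75 to 5.28, so no rise is read. Strc, called lower in both diets, was well above background on 0 of 12 arrays and is not read either. Of 8 brush border genes, 0 rose and 1 fell in PR, and 2 rose and 1 fell in FA. Ezr, which links membrane to actin, fell by 0.14 ± 0.04 in PR (adjusted p = 0.038, lost in 9 of 21 alternatives) and by 0.17 ± 0.04 in FA (adjusted p = 0.013). Myo1a, the brush border myosin, rose by 0.24 ± 0.08 in FA (adjusted p = 0.038, lost in 8 of 21 alternatives). Over these alternatives its difference ran from 0.147 to 0.299.

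Probes within 500 kb of a family probe, by the mm9 coordinates of the files, numbered 181. Between PR and CD 36 were higher and 14 lower (27.6%), and between FA and CD 47 were higher and 18 lower (35.9%), beside 30% and 34.4% of all probes. Around Eps8l1, 13 of 58 were higher and 5 lower in PR (31%), and 13 and 6 in FA (32.8%). The nearest called neighbour, Ppp1r12c at 2823 bases, rose by 0.23 ± 0.06 in PR (adjusted p = 0.010) and by 0.19 ± 0.06 in FA (adjusted p = 0.020). Rdh13 at 52726 bases rose by 0.27 ± 0.07 in PR and Tmem86b at 149289 bases by 0.57 ± 0.12. The transcript 6030429G01Rik, at 44062 bases, fell by 0.59 ± 0.14.

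Near Eps8l2, 13 of 63 probes were higher and 5 lower in PR (28.6%), and 19 and 4 in FA (36.5%). B230206H07Rik at 2637 bases rose by 0.60 ± 0.14 in PR (adjusted p = 0.010) and 0.72 ± 0.14 in FA (adjusted p = 0.0034). Gm4535, at 45356 bases, fell by 0.15 ± 0.04 in PR and by 0.27 ± 0.04 in FA. Near Eps8, 3 of 5 were higher and 1 lower in PR (80%), and 3 and 0 in FA (60%), with both Strap probes higher in PR (0.29 ± 0.06 and 0.28 ± 0.05) and Rerg higher by 0.68 ± 0.11. Near Eps8l3, 7 of 55 were higher and 3 lower in PR (18.2%), and 12 and 8 in FA (36.4%), the nearest called in PR being Gstm7 at 36342 bases with 0.40 ± 0.09 (adjusted p = 0.0091). Between FA and PR 2 of 181 were called (1.1%, beside 0.614% of all probes), 1 of them Isoc2a, lower by 0.70 on the log2 scale, and the other a probe listed by a transcript identifier. Neither was called in the Tukey test or with the replicate number as a block.

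The probes most like each member over the 12 arrays were sought among 25727 named probes well above background on at least 4 arrays. These correlations are descriptions, and the arrays of a diet share a slide. Over log2 values, Eps8l1 was closest to B930041F14Rik (r = 0.98), Fbxw5 (0.97), Fam54b (0.96), Gm5921 (0.96) and Rnf114 (0.96). With the group means removed, the closest were V1rd6 and Prpf19 (0.86), Rpl21 (0.85), and Spg21 and Nanos3 (0.84). Both measures take in the CD values of Eps8l1, of which 0 of 4 were well above background. The levels also hold the gap from CD on which Eps8l1 was chosen. For Eps8l2 the closest levels were Actg1 (0.95), Cnot3, Fcer2a, Xylt2 and Tubb5, and among the closest deviations were Srgap2 (0.96), Opn4, Cdan1 and Nlrc3. For the brighter Eps8 probe they were Gna13 (0.95), St18, Chpt1, Ctsc and Fchsd2 in levels, and Mmgt1 (0.97), Ero1lb, St18, Dock10 and 4930503L19Rik in deviations. For Eps8l3 they were A330050B17Rik (0.94), Tmem184c, LOC100039021, Sdha and Gpi1 in levels, and Ptprc (0.98), Fam170b, Gm7273, A330050B17Rik and Rnf212 in deviations. Ptprc, like Eps8l3, was highest in CD on replicate 1, at 6.84 against 4.39 to 4.59 on the other CD arrays, where neither probe was well above background. Without that array, left out after seeing the data, the correlations in deviations were 0.87 for Ptprc, 0.78, 0.71, 0.93 and 0.49 in the same order.

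Markers of the cell types a whole brain could hold were read on the same arrays. Neuron markers averaged 15.19, 15.18 and 15.17 in CD, PR and FA, and astrocyte markers 13.34, 13.38 and 13.35. Oligodendrocyte markers averaged 13.71, 13.82 and 13.82, with PR just above CD without overlap, and microglia markers 11.62, 11.47 and 11.50. Endothelium markers averaged 10.88, 11.13 and 11.02, and ran from 10.83 to 10.94 in CD, 11.03 to 11.22 in PR and 10.99 to 11.07 in FA, without overlap with CD. Beside 30% of all probes in PR, the genes called higher and lower numbered 1 and 1 of 4 for neurons, 1 and 1 of 4 for astrocytes, 1 and 0 of 4 for oligodendrocytes, and 0 and 1 of 4 for microglia. They were 2 and 0 of 4 for endothelium, 0 and 1 of 8 for choroid plexus, and 0 of 7 for blood. Blood markers averaged 9.50 in CD (9.35 to 9.71), 9.76 in PR (9.14 to 10.89) and 9.87 in FA (8.85 to 10.57). S100a9 was at 8.91 to 9.01 on the CD arrays, 9.36, 11.94, 8.99 and 7.96 on the PR arrays, and 11.40, 8.16, 10.99 and 9.84 on the FA arrays. Beside 34.4% in FA, they numbered 1 and 0 for neurons, 1 and 1 for astrocytes, 1 and 0 for oligodendrocytes, 0 and 2 for microglia, 2 and 1 for endothelium, 0 and 1 for choroid plexus and 0 for blood. Epithelium markers averaged 5.77 in CD (5.72 to 5.85), 5.55 in PR (5.48 to 5.64, without overlap with CD) and 5.63 in FA (5.54 to 5.84). Of these 10 markers, 1 was called higher and 6 lower in PR and in FA. Those called lower were Epcam, Krt8, Krt18, Krt19 and Cldn7 in both, Cldn4 in PR and Cdh1 in FA, and those called higher were Esrp1 in PR, whose other probe was called lower, and Elf3 in FA. Epcam was well above background on 0 of 12 arrays, Cldn4 on 0 of the CD and PR arrays, and Elf3 on 1 FA array and 0 CD arrays, so these 3 are not read. The epithelium means include them and Grhl2, which was above background on 1 CD array, and so take in values that were not measured. Krt18 was the brightest on every array.

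Of 7 pituitary markers 2, Gh and Prl, were called lower in PR and in FA (28.6%, beside 30% and 34.4% of all probes). The growth hormone gene Gh was at 7.84, 8.37, 7.73 and 7.82 on the CD arrays, all above background, and at 2.24, 2.27, 3.10 and 2.84 on the PR arrays, none above background. On the FA arrays Gh was at 2.58, 2.27, 2.26 and 6.16, with replicate 4 the only one above background. The prolactin gene Prl was at 7.84 to 7.98 in CD, 2.65 to 3.83 in PR, 2.39 to 2.47 in 3 FA arrays and 7.35 in FA replicate 4. FA replicate 4 was also the PR or FA array with the lowest Eps8l1. The other 5 were not called, and Lhb, Tshb and Pou1f1 overlapped between CD and both diets. Pomc lay below CD without overlap in PR, by 0.52, and overlapped with CD in FA. Cga lay below CD without overlap in FA, where 3 of 4 arrays were above background, and overlapped with CD in PR. The mean of the list, which includes Gh and Prl, was 8.37 in CD (8.23 to 8.52), 6.66 in PR (6.43 to 6.84) and 6.70 in FA (5.76 to 7.90), without overlap with CD. These means take in Gh and Prl values that were not above background on the PR arrays or on FA arrays other than replicate 4. Pou1f1 was the brightest on every array, and made up most of the summed intensity of the list. This sum was 17667 to 23091 in CD, 13907 to 25256 in PR and 16178 to 18818 in FA. Pou1f1 was at 13.65 to 14.55 on the PR arrays, where Gh and Prl were not above background. The sum thus mainly follows this probe, and neither is read as an amount of pituitary tissue. The part of pituitary tissue in the values of the Eps8 family was not tested.

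Windows before annotated starts were taken from RefSeq (GRCm38.p6) for 3 of the 4 genes, Eps8l1, Eps8l2 and Eps8l3. The sequences of Eps8l1 and Eps8l2, both higher in PR and FA, are given below. Each window holds the 250 bases before the start. CG dinucleotides, at which DNA methylation can occur, are in capitals. The Eps8l1 window at the most upstream of its 3 starts lies at chr7:4460447-4460696, plus strand, and the Eps8l2 window at chr7:141338752-141339001, plus strand.
Eps8l1: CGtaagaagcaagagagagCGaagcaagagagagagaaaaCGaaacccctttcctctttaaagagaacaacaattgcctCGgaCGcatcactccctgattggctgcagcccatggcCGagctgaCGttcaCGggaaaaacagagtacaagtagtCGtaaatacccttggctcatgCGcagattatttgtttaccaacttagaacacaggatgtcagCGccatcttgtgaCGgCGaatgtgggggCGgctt
Eps8l2: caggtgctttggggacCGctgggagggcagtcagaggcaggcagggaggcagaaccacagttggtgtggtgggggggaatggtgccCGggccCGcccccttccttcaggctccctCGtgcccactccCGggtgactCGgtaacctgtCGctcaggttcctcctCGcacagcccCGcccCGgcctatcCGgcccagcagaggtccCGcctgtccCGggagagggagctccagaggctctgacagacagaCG
Both windows hold 14 CG, and 29.4% of 32851 windows hold at least as many. The 2 later Eps8l1 starts had 7 and 3 CG, and the Eps8l3 window had 4. A count of letters says nothing of methylation, and the methylation samples of the series were not analysed here.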

How the data were processed

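Gene expression was measured in 12 brains with single-colour Agilent arrays. According to the files, the authors quantified spots with Agilent Feature Extraction 11.0.1.1, corrected for background, and deposited both the intensity of every spot and a table of qspline-normalized intensities on the linear scale, with probes placed on mm9. Log2 of the deposited normalized intensity was used. Group means of the 3 diets came from a single limma model (limma 3.58.1, R 4.3.3). Tests were two-sided, p-values were adjusted by Benjamini and Hochberg's method across the 39429 probes in each comparison, and a probe was called at an adjusted p under 0.05. Whether a probe stood well above background was read from the flag in the files. Files were read with the data.table package (version 1.17.8), and tables and figures made with Python 3.11.15, pandas 2.3.3 and matplotlib 3.10.9. The number of arrays limits the precision.

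A qspline function rewritten in R differed from the deposited values by a median of 0.00098 and at most 0.15 (log2). In arrays with 200 changed probes of 39429, made as a test of the code for PR and CD, limma recovered 74% at a log2 change of 1 and 91% at 2, with 10 false calls. Accessions of all 5 family probes matched a RefSeq gene of the same symbol.

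Members and lists were chosen with earlier results of these data known. Named were all family probes, in each pathway list and comparison the called gene with the largest fitted rise and fall among genes well above background on all arrays of at least 1 group, up to 5 called neighbours per gene, nearest first, and 5 most alike probes by each measure, of which 1 is not reported here. Results were recomputed with quantile normalization, scaling to the 75th percentile, qspline without outlier spots, normexp with an offset of 50 followed by quantile normalization, removing dim probes, the replicate number as a block, trend and robust variance, only the groups compared, the Tukey test of the methods, and leaving out each array. The Tukey test used the same cutoff of 0.05 and no cutoff for fold change, which is looser than the authors' threshold. The mean of all probes of a gene was used for the counts of pathway genes only. Methylation samples were not analysed here.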

Additional observations from a re-analysis of the deposited data

Results flagged for a closer look

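In 3 of 15 groups of 4 arrays, 1 array stood far from the rest, where chance alone gives about 1 in 20 groups. For the brighter Eps8 probe, CD replicate 2 had 11.11, against 11.36 to 11.37 on the other CD arrays. For Eps8l3, CD replicate 1 had 5.22, against 4.32 to 4.40 on the others, and it was the CD array on which the probe was well above background. For the same probe, PR replicate 1 had 4.54, against 4.68 to 4.69 on the other PR arrays.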

How the results depend on the processing

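Correlations of same-numbered deviations ran from -0.063 to 0.196, and the replicate number, which is the position on the slide, was not used as a pair in the main fit. With the replicate number as a block the family count was 1 in PR and 1 in FA, 0 neighbours were called between FA and PR, and 11 probes in all.

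Family calls relative to CD numbered 2 in each diet. In PR they were 1 with scaling to the 75th percentile, and 0 with the Tukey test and with only the groups compared. In FA they were 3 with the 75th percentile, Eps8l3 among them, and 1 with the Tukey test. Without single arrays they ranged from 1 to 2. Without CD replicate 1 they stayed at 2 in each diet, but with Eps8l3, from which no rise is read, in place of the dimmer Eps8 probe. Eps8l1 differed from CD by 1.12 (PR) and 0.941 (FA) under normexp (offset of 50, with quantile normalization). Averaging all probes of a gene gave 1 pathway gene called between FA and PR. Pathway genes called without single arrays ranged from 13 to 19 in PR and 17 to 26 in FA.

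Of 2 neighbours called between FA and PR, 1 was called with normexp, with trend and robust variance and with only the groups compared, 0 with the Tukey test, and 1 to 2 without single arrays. With dim probes removed 3 were called, both of these among them. The 242 probes called in that comparison became 142 (75th percentile), 8 (Tukey test), 554 (dim probes removed), 101 (only the groups compared), 436 (trend and robust variance) and 34 to 259 without single arrays. Higher probes were 44.7% of those called in PR, but 55.7% with normexp (45.1% with quantile normalization alone). In FA they were 47.6%, but 56.7% with normexp and 39.2% with the 75th percentile, and 37.2% between FA and PR, but 16.2% with the 75th percentile.

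Uncalled values changed sign in a few settings. Between FA and PR, the dimmer Eps8 probe gave -0.06 and Eps8l2 -0.0096 with the 75th percentile. Without single arrays, the brighter Eps8 probe in FA ranged from -0.0288 to 0.0734, Eps8l3 in PR from -0.0042 to 0.297, and the dimmer Eps8 probe between FA and PR from -0.0461 to 0.0953. The cause of these changes was not tested. Signal near background limits Eps8l1 in CD and Eps8l3.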
